A study of Homo sapiens with 22 samples.

Results

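The genes described here are 10 outputs and feedback inhibitors of the ERK pathway, measured in melanoma cells that carry a BRAF mutation. They were taken by symbol, and each symbol matched 1 row among the 33538 genes of the first single-cell experiment and among the 36601 genes of the other two. DUSP4 and DUSP6 encode phosphatases that take the activating phosphates off MAP kinases, in the cytoplasm in the case of DUSP6 and in the nucleus in the case of DUSP4. SPRY2, SPRY4, SPRED1 and SPRED2 encode Sprouty and Spred proteins, which inhibit the pathway at the level of RAS and RAF. ETV4 and ETV5 encode ETS transcription factors of the PEA3 group, and EGR1 and EGR3 encode zinc finger factors of the early growth response group. In GENCODE annotation on hg38, DUSP6 lies at chr12:89347235-89352501 and DUSP4 at chr8:29333064-29350684. SPRY2 lies at chr13:80335976-80341126, SPRY4 at chr5:142310427-142326455, SPRED1 at chr15:38252836-38357249 and SPRED2 at chr2:65310851-65432637. ETV4 lies at chr17:43527844-43579620, ETV5 at chr3:186046314-186110318, EGR1 at chr5:138465479-138469303 and EGR3 at chr8:22687659-22693480, and all but SPRED1 and EGR1 are on the minus strand.

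In the ERK pathway, RAS activates RAF, RAF activates MEK and MEK activates ERK, which then switches on a set of target genes. Several of these targets act back on the pathway, so that their RNA levels are often read as a record of ERK output. In melanoma cells with mutant BRAF the pathway is driven without a growth factor signal, and these genes are transcribed in the absence of treatment. EGR1 and EGR3 are immediate-early genes, which respond to many stimuli within minutes.

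The study profiled WM989 and WM983B, human melanoma lines used as clones that had each passed through a single cell more than once. Its question was how cells move between a drug-susceptible state and a rare primed state, from which cells tend to survive targeted therapy. The first experiment held 12531 untreated WM989 cells with lentiviral lineage barcodes in 8 wells, of which 4 wells formed replicate r1 and 4 formed r2, some with cells from a sort for high EGFR and NGFR, although the cell labels do not say which. The second held 1449 untreated WM983B cells in 1 library. The third held 40021 WM989 cells in 8 libraries, namely replicates r1 and r2 of untreated cells (Control) and of cells kept for 5 days with TGFB1 at 5 ng/mL, with the TGFBR1 and TGFBR2 inhibitor LY2109761 at 4 µM (TGFBRi), or with the PI3K inhibitor GDC-0941 at 2 µM (PI3Ki). The sample labels call these replicates Mix and Primed, and which of them is r1 is not known. ATAC-seq was done on untreated WM989 cells in 4 sorts, EGFR_High, NGFR_High, EGFR_NGFR_High and Mix, where Mix stands for cells without high EGFR or NGFR, with 3 libraries each.

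The deposited tables held 750662838, 102738398 and 685641196 UMIs (unique molecular identifiers, which count RNA molecules) in the 3 experiments, with medians of 53571, 66668 and 16321 per cell. In the third the libraries held between 70239657 and 122420544 UMIs, and the primed cells of a library between 285360 and 22354563. State and cluster were taken from the authors' cell labels, in which 2843 WM989 cells, 731 WM983B cells and 4077 cells of the third experiment are primed. All 4 markers of the primed state (EGFR, NGFR, AXL and NT5E) were higher in the primed WM989 cells, and all 6 melanocytic markers with at least 20 CPM (counts per 1000000 UMIs) were lower. Of 9 markers of leukocytes, endothelium, epithelium, keratinocytes and erythroid cells, HBB and KRT5 had at most 3 counts in any experiment of WM989 cells, and the 9 summed to between 0.65 and 25.6 CPM over the groups of the first experiment. That sum was nearly all PECAM1, a cell adhesion gene known from endothelium, at 22.8 CPM in the primed cells against 0.183 CPM in the others, and its part in the results was not tested. In the first experiment 38 cells, and in the third 388, shared a cell barcode with a cell of another library.

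In untreated WM989 cells the members did not move as a block between the states. DUSP6, SPRY4 and EGR1 were higher in primed cells, ETV4 and ETV5 were lower, and DUSP4, SPRY2, SPRED1, SPRED2 and EGR3 lay within 1.5-fold. The CPM of a state was taken from the summed counts of all its cells. The authors defined the states with these counts and deposited the experiment as 1 sample, so no test was made. The 8 wells stand as a view of the spread. By the study's methods the primed and the mixed cells were each split over 2 wells of the chip. Wells can thus share a culture and are not 8 independent samples. For 8 members 20 CPM or more was reached in a state, and the ratio of primed to drug-susceptible CPM was above 1.5 for 2 of them and below 1/1.5 for 2. Among all 6316 genes with that level the shares were 17.7% and 14.7%, so the members' shares of 2 in 8 were not far from the background. SPRY4 and SPRED2 reached 20 CPM only through the primed cells.

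**Figure D1:**
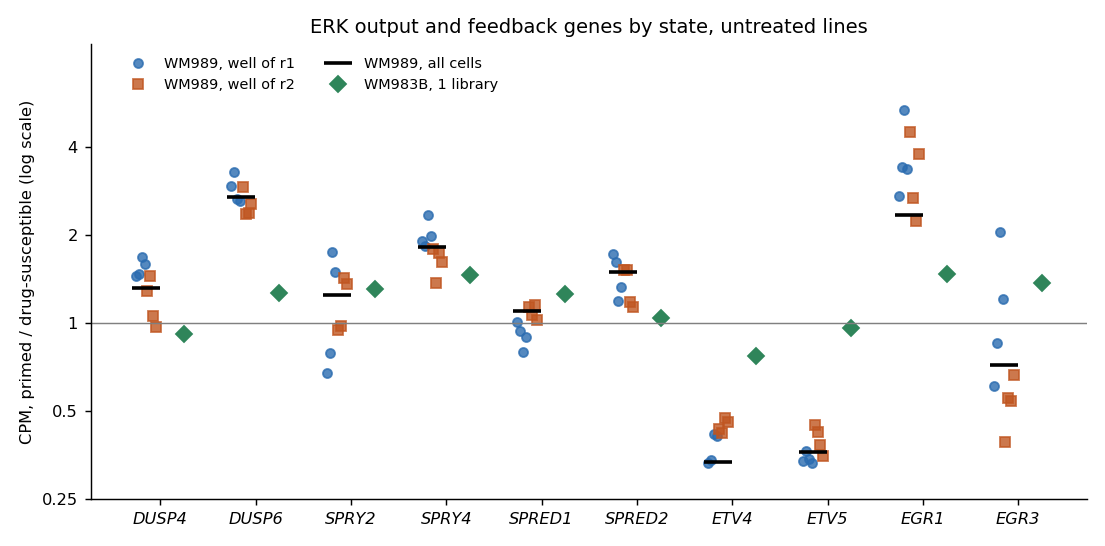
Ratio of CPM in primed cells to CPM in drug-susceptible cells (log scale) for the 10 genes. Circles and squares are the 8 wells of untreated WM989 cells, black bars the ratio over all WM989 cells, and diamonds the single WM983B library. DUSP6, SPRY4, SPRED2 and EGR1 lie above 1 in 8 of 8 wells, and ETV4 and ETV5 in 0 of 8.

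DUSP6 had 185 CPM in primed cells (95% Poisson interval 183 to 187, counting error only) and 68.8 CPM in drug-susceptible cells (68.2 to 69.5). The ratio was 2.69 over all cells, 2.83 in r1 and 2.35 in r2. By well it ran from 2.36 through a median of 2.63 to 3.29, so that no well came near 1. For DUSP4 the levels were 299 CPM (primed) and 227 CPM (drug-susceptible), and the ratio was 1.32. Its wells ran from 0.967 through 1.44 to 1.68, and 7 of 8 lay above 1. The difference between the states was thus smaller for the nuclear phosphatase, and its ratio in r2 was 1.08 against 1.54 in r1.

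Among the Sprouty and Spred genes the state ratio was largest for SPRY4. It reached 24.5 CPM in primed cells against 13.5 CPM, a ratio of 1.81, with wells from 1.37 through 1.81 to 2.34. SPRED2 had 26.4 and 17.7 CPM, a ratio of 1.496, with wells from 1.14 through 1.42 to 1.72. Both genes were above 1 in 8 of 8 wells, as was DUSP6. Across the 6316 genes 29.8% were above 1 in all 8 wells. SPRY2 had 60.2 and 48.4 CPM, a ratio of 1.24, but its wells ran from 0.673 to 1.74 and only 4 of 8 lay above 1. SPRED1 had 42.1 and 38.2 CPM, a ratio of 1.1, with wells from 0.796 to 1.15. For these 2 genes the wells gave no common direction. SPRY2 was below 1 in wells 1, 2, 5 and 6 and above 1 in wells 3, 4, 7 and 8. Neighbouring wells thus went together, and which wells share a culture is not given in the cell labels. With TMM factors, a scaling that sets most genes equal between the states, the ratio of SPRED1 turned to 0.972.

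The PEA3 factors went the other way. ETV4 stood at 51.4 CPM in primed cells against 154 CPM, a ratio of 0.333, with wells from 0.333 through 0.417 to 0.472. ETV5 had 75.8 and 209 CPM, a ratio of 0.363, with wells from 0.331 through 0.359 to 0.449. Both were below 1 in 8 of 8 wells, where 38.2% of all genes compared were.

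EGR1 stood at 16.3 CPM in primed cells against 6.97 CPM, a ratio of 2.33. In single wells the ratio was mostly larger, from 2.24 through 3.39 to 5.36. EGR3 had 6.79 and 9.45 CPM, a ratio of 0.718, and its wells ran from 0.393 through 0.635 to 2.04. EGR3 had no direction that the replicates shared, with 1.09 in r1 against 0.457 in r2. Neither gene reached 20 CPM in a state. The EGR1 promoter is shown because it holds a well-known kind of element of immediate-early genes, the CArG box (CC, then 6 bases that are A or T, then GG), which the serum response factor binds. It is the RefSeq sequence of the 250 bases before the gene's start on GRCh38.p14, chr5:138465229-138465478 on the plus strand, with the 2 CArG boxes in capitals.

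EGR1: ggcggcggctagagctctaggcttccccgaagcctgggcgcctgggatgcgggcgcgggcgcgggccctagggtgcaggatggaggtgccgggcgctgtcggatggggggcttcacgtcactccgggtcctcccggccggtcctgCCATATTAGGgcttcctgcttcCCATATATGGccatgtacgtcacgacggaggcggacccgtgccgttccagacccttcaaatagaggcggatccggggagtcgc

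The boxes lie at positions -105 to -96 and -83 to -74 from the start. A CArG box on either strand was found in 1.159% of 35116 RefSeq promoters of this length. RefSeq promoters of 6 of the 10 genes were searched, DUSP6, SPRY2, SPRY4, SPRED1, SPRED2 and EGR1, and those of the other 5 held no CArG box. None was found for ETV4 and ETV5, and DUSP4 and EGR3, on chromosome 8, were left out of the search. None of the 6 held the letters searched for CRE (TGACGTCA), AP-1 (TGANTCA), ETS (CCGGAAGT) or EGR (GCGTGGG) sites, which were found in 1.646%, 6.573%, 3.423% and 6.185% of all these promoters. A match of letters is not evidence of binding in these cells.

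Restricting to cells in G1 changed some of these ratios. In the authors' phase calls, 93.8% of the cells of primed cluster 2, 84.4% of primed cluster 8 and 11.4% of primed cluster 9 were in G1, and 62.9% of cluster 9 (622 cells) were in G2M. The drug-susceptible clusters ran from 0% to 82.8% in G1. Within G1 cells alone the ratio was 3.60 for DUSP6, 2.1 for SPRY4, 1.71 for SPRED2 and 3.79 for EGR1. The values for ETV4 (0.341) and ETV5 (0.361) were close to those over all phases.

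A cluster of cells called G2M had the highest levels of several members. Cluster 6 of the untreated WM989 cells (747 cells, 99.7% called G2M) is counted as drug-susceptible, and it had the highest CPM of the 11 clusters for EGR1, EGR3, SPRY4, SPRY2 and SPRED1. Among the genes with at least 20 CPM in a state 14.6% were highest in cluster 6, and of the 8 members at that level 3 were. EGR1 had 35.2 CPM in cluster 6, 23.6 CPM in primed cluster 9, and a median of 6.22 over the 11 clusters. EGR3 had 32.9 CPM in cluster 6 and at most 9.88 CPM in any other cluster. SPRY4 had 38.1 CPM there and 26.9 CPM in the next cluster. DUSP6 had 145 CPM in cluster 6, below the 3 primed clusters (192 in cluster 2, 187 in cluster 9 and 159 in cluster 8) and above the other 7. The pattern was not shared by all G2M cells, since in cluster 7 (730 cells, 100% called G2M) EGR1 had 6.22 CPM, EGR3 7.22 CPM and SPRY4 11.1 CPM.

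**Figure D2:**
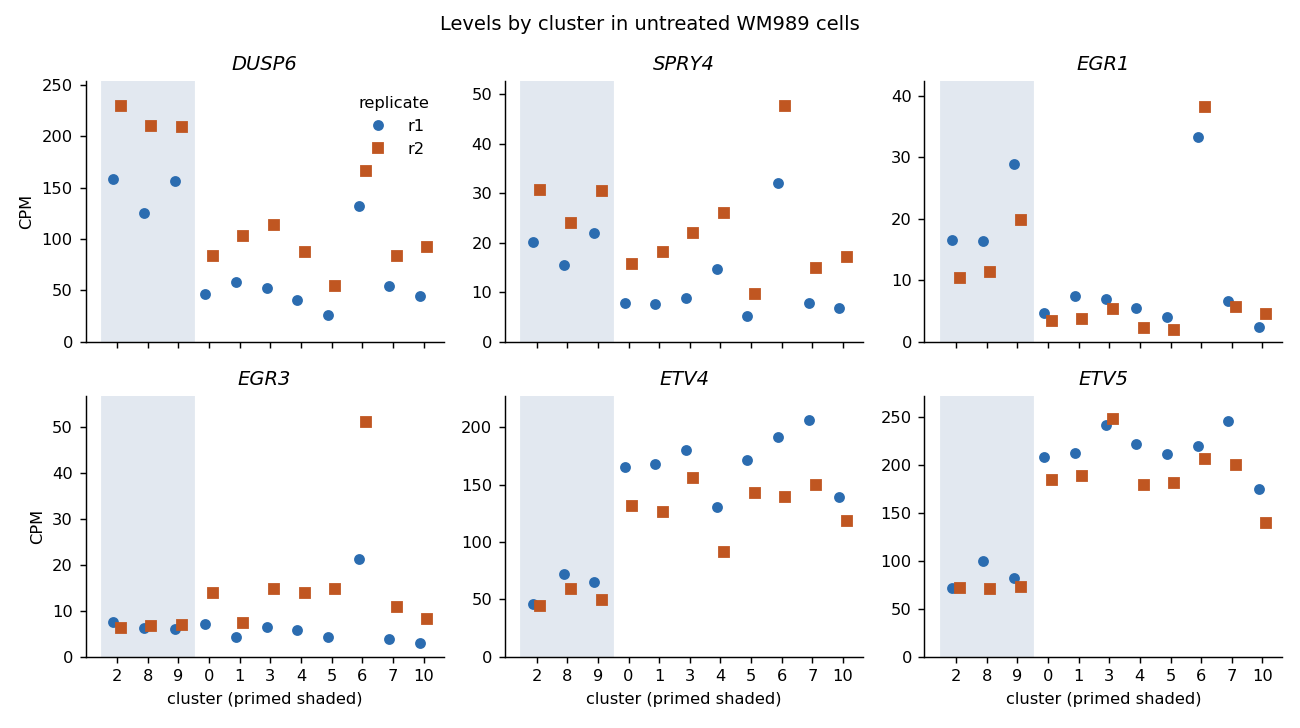
CPM of 6 of the genes in each of the 11 clusters of untreated WM989 cells, with circles for r1 and squares for r2 and the 3 primed clusters shaded. EGR1, EGR3 and SPRY4 peak in cluster 6, DUSP6 is highest in the primed clusters, and ETV4 and ETV5 are lowest there.

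In the third experiment a cluster called mostly G2M was also highest for some members, in part other ones. Its cluster 5 (3189 cells, 95% called G2M) had the highest CPM of 13 clusters for EGR1 (65.2), EGR3 (65.5), SPRY4 (48.6) and DUSP4 (258), and of the 8 members with at least 20 CPM in a state 3 were highest there, beside 21.4% of 6138 genes. SPRY2 and SPRED1 were highest in primed cluster 10, with 77.4 and 63.8 CPM, and second in cluster 5, with 73.5 and 59.6 CPM. DUSP4, in turn, was highest in drug-susceptible cluster 10 of the first experiment (338 CPM). The next cluster had 47.1 CPM of EGR1 and 27.6 CPM of EGR3. Of 33 genes of the lists of immediate-early genes and other ERK targets 2 were first in both clusters, MYC (362 CPM in cluster 6 of the first experiment and 259 CPM in cluster 5 of the third) and NR4A1 (43.2 and 47.1 CPM), named after their values were seen. JUN and KLF2, which are immediate-early genes like NR4A1 and were also chosen after their values were seen, had ranks 7 and 10 of 11 in the first experiment and 7 and 11 of 13 in the third. At the other end, cluster 5 of the first experiment (1118 cells) had the lowest levels of DUSP6 (39.1 CPM), SPRY2 (33.7), SPRY4 (7.24), SPRED1 (25.9) and SPRED2 (15.4), which are 5 of the 8 members at 20 CPM, beside 8.26% of the 6316 genes. Over all 11 clusters the highest level was 5.26 times the lowest for SPRY4, 4.90 times for DUSP6 and 1.85 times for SPRED2.

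Most of the feedback genes were higher in r2 than in r1 of the untreated WM989 cells, as were many other genes. In drug-susceptible cells SPRY2 had 31.1 CPM in r1 and 76.4 CPM in r2, a ratio of 2.46. The ratio of r2 to r1 in the same cells was 1.89 for SPRY4, 1.76 for DUSP6, 1.61 for SPRED2 and 1.38 for SPRED1, and all 5 genes were higher in r2 in 11 of 11 clusters, as were 49.3% of the 6316 genes. ETV4 was lower in r2 in 11 of 11 clusters, as were 10.3% of the genes, with 168 and 132 CPM in drug-susceptible cells. EGR3 had 6.43 CPM in r1 and 14.3 CPM in r2 in these cells, and 7.02 and 6.55 CPM in primed cells. The replicate ratio in drug-susceptible cells was thus larger than the state ratio for SPRY2, SPRY4, SPRED2 and SPRED1, and smaller for DUSP6. The state ratio was above 1 in both replicates for DUSP6 (2.83 and 2.35), EGR1 (2.51 and 2.23), SPRY4 (1.94 and 1.56) and SPRED2 (1.60 and 1.31). The same held for DUSP4 (1.54 and 1.08), SPRY2 (1.15 and 1.12) and SPRED1 (1.04 and 1.08), although only 4 of 8 wells of SPRY2 were above 1. What set the replicates apart was not tested.

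Over the 22 sums of cluster and replicate, likeness was measured as Pearson's r of log2(CPM + 1) and is given as a description, since the points share libraries and depth. ETV4 and ETV5 ran together (r = 0.96), DUSP6 ran with SPRY4 (0.873) and SPRED1 with SPRY2 (0.855), and DUSP6 ran against ETV4 (-0.729). Among 8048 genes with a mean of at least 10 CPM, the 3 most like DUSP6 were NECTIN3 (0.928), RAB22A and IRF2BPL. The most like ETV4 and ETV5 was in both cases KRT27 (0.975 and 0.977), followed by BCAS3 and GJB1 for ETV4 and by ATOX1 and TMEM98 for ETV5. For EGR1 they were IER2 (0.849), an immediate-early gene, then PPP1R10 and TAF12. For EGR3 they were C16orf91 (0.811), TOR1AIP2 and PHF13. For SPRY2 the order was DMTF1 (0.947), GOLPH3 and PAN3, for SPRY4 ELF2 (0.887), PURA and INTS6, for SPRED1 SRGAP2C (0.907), NRDE2 and SECISBP2L, and for DUSP4 SYF2 (0.859), PCGF1 and GABARAPL1. None of the 10 had another member among its 3 most like genes.

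Genes of the kinase cascade and other known ERK targets are given by their counts, as lists chosen with earlier results of these data known. Of 26 cascade genes 20 had at least 20 CPM, of which 5 had a state ratio above 1.5 and 2 below 1/1.5, with a median of 1.08, beside the 17.7% and 14.7% of all genes. Of these 20 genes 3, RASA1 and RPS6KA2 among them, reached that level only through the primed cells. The cascade genes with the largest differences were RPS6KA2 (4.85), RASA1 (3.97), SOS1 (2.81) and RPS6KA5 (0.343). Of 10 other ERK target genes at that level 9 were above 1.5, led by ERRFI1 (35.6), LIF (24.4), CCND1 (9.21) and ETV1 (6.10), and only MYC was below (0.249). Of these 10 targets 3 reached 20 CPM only through the primed cells, LIF among them with 20.4 CPM against 0.836 CPM and ERRFI1 with 177 CPM against 4.96 CPM, so nothing is read from their count. ETV1, the third PEA3 factor, had 118 CPM in primed cells against 19.3 CPM, while ETV4 and ETV5 were lower in primed cells. ETV1 too reached 20 CPM only through the primed cells. Of 9 immediate-early genes 6 were above, led by JUN (26.1), KLF2 (9.06), FOSB (8.47) and JUNB (4.55), and only NR4A1 was below (0.294). Of these 9 genes 4 (FOS, FOSB, JUN and KLF2) reached 20 CPM only through the primed cells, and nothing is read from this count either.

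In WM983B all 10 genes lay within 1.5-fold between the states. Of the 10 members 7 had at least 20 CPM in a state (SPRY4, EGR1 and EGR3 did not), and 0 of these 7 were beyond 1.5 in either direction, where 4.1% of 6856 genes were above and 1.97% below. With shares this low, 0 of 7 is near the background. With 1 library there was no replicate to compare. EGR1 stood at 19.9 CPM in primed cells against 13.5 CPM, a ratio of 1.47. The ratios were 1.46 for SPRY4, 1.37 for EGR3, 1.31 for SPRY2, 1.27 for DUSP6, 1.26 for SPRED1, 1.04 for SPRED2 and 0.920 for DUSP4. ETV4 had 49.4 and 64.1 CPM, a ratio of 0.771, and ETV5 had 92.3 and 96.3 CPM, a ratio of 0.959. Beside these, the ratio of ETV5 in WM989 was 0.363 in the first experiment, and the difference between the lines was not tested.

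The small primed cluster 2 of WM983B (91 cells) was highest for 7 of the 10 genes. Of the 7 members with at least 20 CPM in a state 4 were highest there (DUSP4, DUSP6, SPRED2 and ETV5), beside 28.7% of the 6856 genes. Cluster 2 had 171 CPM of DUSP6, 282 CPM of DUSP4, 29.8 CPM of SPRY4, 31.5 CPM of EGR1 and 24.6 CPM of EGR3, each the highest of the 4 clusters, as were ETV5 (107 CPM) and SPRED2 (27.4 CPM). SPRY2 (54.9 CPM), SPRED1 (39.5 CPM) and ETV4 (53.5 CPM) were higher in another cluster. In the large primed cluster 0 (640 cells) DUSP6 had 134 CPM, SPRY4 14.9 CPM and EGR3 12.4 CPM. Restricted to cells in G1, the state ratio in WM983B was 2.91 for EGR1, 2.24 for SPRY4, 1.57 for SPRY2 and 1.56 for DUSP6. Of 21 cascade genes with at least 20 CPM in this line none was beyond 1.5. Of 10 other ERK targets 5 were above, led by LIF (3.79), EPHA2 (2.99, at 20 CPM only in primed cells), CCND1 (1.92) and FOSL1 (1.78), and MYC was below (0.652). Of 8 immediate-early genes 2 were above, JUN (2.63, at 20 CPM only in primed cells) and IER2 (1.63), and 0 below. Of all genes 4.1% were above and 1.97% below.

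The untreated libraries of the third experiment give the WM989 state ratios again, in 94 and 165 primed cells. The ratios in Control r1 and r2 were 2.09 and 2.3 for DUSP6, 1.87 and 2.56 for SPRY4, 2.18 and 2.22 for EGR1, 0.464 and 0.600 for ETV4, and 0.729 and 0.573 for ETV5. SPRY2 had 1.87 and 1.93, larger than in the first experiment, and EGR3 had 1.09 and 1.2. SPRED1 had 1.31 and 1.57, SPRED2 had 1.56 and 1.40, and DUSP4 had 1.17 and 1.23. No member changed sides of 1 between these libraries.

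**Figure D3:**
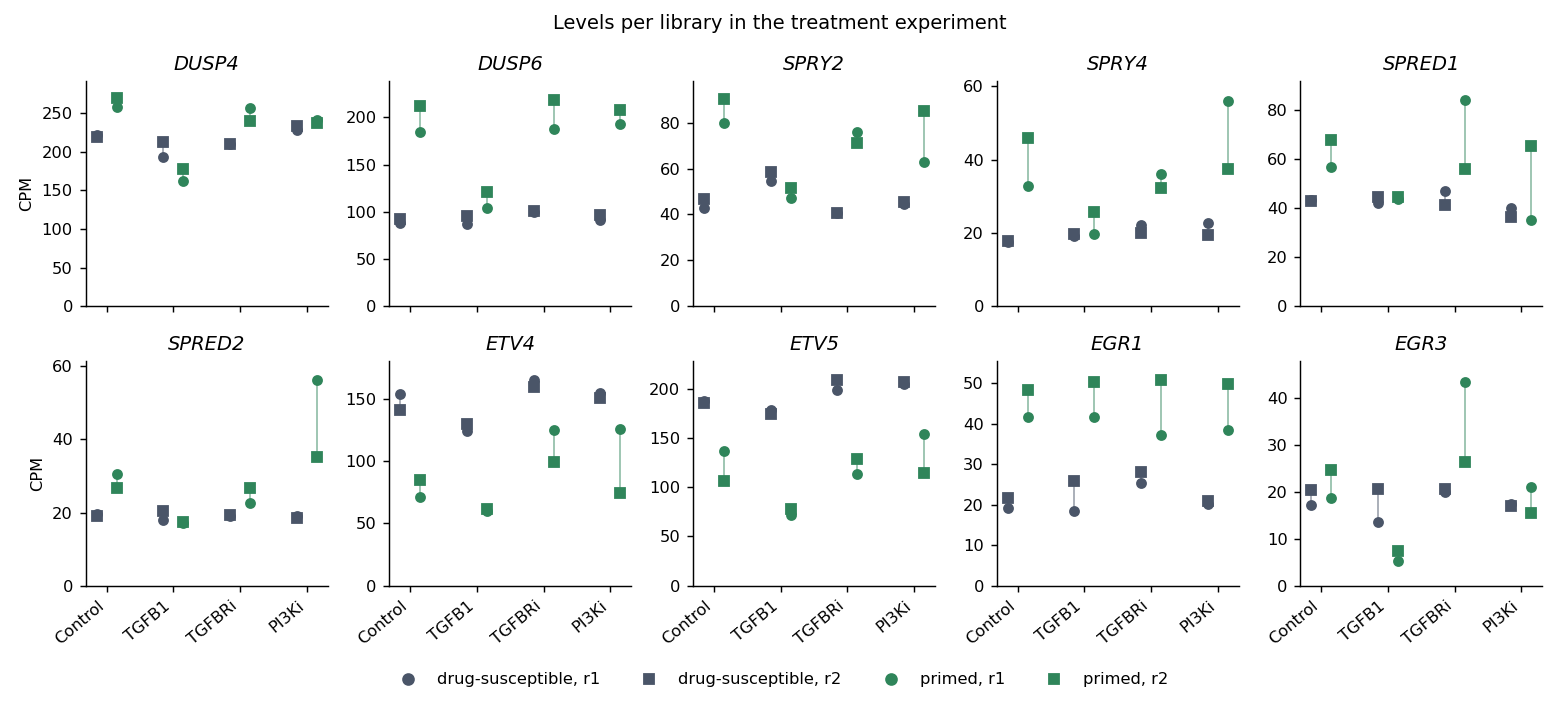
CPM of the 10 genes per library of the treatment experiment, in drug-susceptible cells (grey) and primed cells (green), with circles for r1 and squares for r2 and a line joining the replicates. Under TGFB1 the primed values of DUSP6, SPRY2 and EGR3, for example, lie below those of Control. Most primed cells are of cluster 4 under TGFB1 and of cluster 10 in Control.

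TGFB1 changed the members in different directions when all cells of a library were summed. EGR1 and SPRY2 rose, and ETV4, ETV5, EGR3 and DUSP4 fell. These 2 rises and 4 falls among the 10 genes stand beside 16.3% of 18389 genes called higher and 12.7% called lower in the same comparison, and the members' median log2 fold change was -0.05. The test was edgeR's quasi-likelihood test on summed counts with the replicate as a block, and p-values were adjusted over all genes.

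EGR1 had 19.5 and 22.6 CPM in Control r1 and r2 and 24.3 and 32.4 CPM under TGFB1. The groups did not overlap, and the log2 fold change was 0.41 ± 0.07 (SE; adjusted p = 0.000119). SPRY2 had 43.4 and 48.1 CPM in Control and 52.6 and 56.7 CPM under TGFB1, a log2 fold change of 0.24 ± 0.06 (adjusted p = 0.00496). ETV4 went from 152.7 and 139.7 CPM to 108.3 and 111.8 CPM (log2 -0.42 ± 0.07, adjusted p = 3e-05). ETV5 went from 186.2 and 183.0 CPM to 151.6 and 148.6 CPM (log2 -0.31, adjusted p = 0.000944). EGR3 fell by 0.42 on the log2 scale (adjusted p = 0.00166) and DUSP4 fell by 0.20 (adjusted p = 0.0234). EGR3 was lower under TGFB1 in each replicate, from 17.2 to 11.4 CPM in r1 and from 20.5 to 17.2 CPM in r2, although the groups met at 17.2 CPM. SPRY4 (0.13), DUSP6 (0.04), SPRED1 (-0.02) and SPRED2 (-0.07) did not pass. In cells in G1 alone, however, SPRY4 rose by 0.53 (adjusted p = 0.000493) and DUSP6 by 0.20 (adjusted p = 0.0271), so that 4 members rose and 3 fell there, beside 17.6% and 14.9% of 15452 genes. The EGR3 call was lost without the replicate block (adjusted p = 0.0544) and without TGFB1 r1 (log2 -0.21), and that of SPRY2 without Control r1. The DUSP4 call was lost without the block, in G1 cells and without any 1 of the 4 Control and TGFB1 libraries.

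The share of primed cells moved at the same time. It was 2.26% and 4.47% in Control r1 and r2 and 29.1% and 31.3% under TGFB1. Within the drug-susceptible cells only 2 of the 10 genes passed, SPRY2, which rose by 0.32 ± 0.06 (adjusted p = 0.000912), and ETV4, which fell by 0.23 ± 0.07 (adjusted p = 0.0206). The shares of all genes there were 8.56% higher and 6.32% lower. The drug-susceptible cells are of several clusters, whose shares apart from that of cluster 5 were not compared between treatments. A change in cluster make-up and a change within cells cannot be told apart here. SPRY2 had 42.7 and 46.7 CPM in Control and 54.4 and 58.5 CPM under TGFB1 in these cells. For EGR1 the log2 fold change in drug-susceptible cells was 0.09 ± 0.08 (adjusted p = 0.501), with 19.1 and 21.8 CPM in Control and 18.4 and 25.9 CPM under TGFB1. In cells in G1 alone, however, EGR1 rose by 0.35 (adjusted p = 0.0261). For ETV5 the change was -0.09 ± 0.07 (adjusted p = 0.418), and the other 6 lay between -0.16 (EGR3) and 0.11 (SPRY4) and did not pass. The ETV4 call did not pass without the replicate block or without any 1 of the 4 libraries (adjusted p up to 0.4), and that of SPRY2 had an adjusted p of 0.0534 without Control r1. Of these calls only that of SPRY2 held in all of 3 other settings, without the G2M cluster 5, without the block and in cells in G1 alone.

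Within primed cells 7 of the 10 genes fell under TGFB1 and 0 rose, against 7.09% of 10930 genes called lower and 6.21% called higher. DUSP6 had 184.8 and 212.1 CPM in Control and 104.3 and 120.5 CPM under TGFB1, a log2 fold change of -0.74 ± 0.12 (adjusted p = 1.84e-05). SPRY2 went from 79.7 and 90.1 CPM to 47.0 and 51.5 CPM (log2 -0.71 ± 0.14, adjusted p = 0.000186), opposite to its rise in drug-susceptible cells. EGR3 went from 18.6 and 24.6 CPM to 5.32 and 7.47 CPM (log2 -1.70 ± 0.25, adjusted p = 1.44e-06). Both TGFB1 libraries lay below both Control libraries in these 3 genes. The share of all genes with such a separation was not counted, so nothing is read from it. SPRY4 fell by 0.74, SPRED2 by 0.61, ETV5 by 0.59 and DUSP4 by 0.55 on the log2 scale, with adjusted p between 0.000762 and 0.0253. SPRED1 (log2 -0.44, adjusted p = 0.0596), ETV4 (-0.31) and EGR1 (0.13) did not pass. Without any 1 of the 4 libraries DUSP6, SPRY2 and EGR3 still passed, while SPRED2 did not. DUSP4 was lost without Control r2, TGFB1 r1 or TGFB1 r2, SPRY4 without Control r2 or TGFB1 r1, and ETV5 without Control r1 or TGFB1 r1.

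The primed cells of these libraries were, however, of different clusters. In Control 89 of 94 and 159 of 165 primed cells belonged to cluster 10, while under TGFB1 1548 of 1577 and 1706 of 1757 belonged to cluster 4. Control held 5 and 6 cells of cluster 4. The comparison in primed cells was therefore repeated in cluster 10 alone, with 29 and 51 cells under TGFB1, a choice made after the data were seen. There 1 of the 10 genes passed, against 1.04% of 9481 genes called higher and 1.67% called lower, and it was EGR1, which had not passed over both clusters. EGR1 had 44.3 and 47.3 CPM in Control and 11.2 and 14.6 CPM under TGFB1 (4 and 9 UMIs), a log2 fold change of -1.81 ± 0.37 (adjusted p = 0.00422). In cluster 4 under TGFB1 it had 42.4 and 51.4 CPM. The log2 fold change in cluster 10 was -0.52 for DUSP6 (adjusted p = 0.152), -0.52 for SPRY2 (0.322), 0.02 for SPRY4 (0.989), 0.14 for ETV5 (0.852) and 0.52 for EGR3 (0.585). It was -0.19 for DUSP4, -0.01 for SPRED1, -0.21 for SPRED2 and 0.29 for ETV4. Of the 7 genes that fell over both clusters, none thus passed in the cluster that both conditions shared, where few cells were left, and the treatment and the cluster cannot be told apart in the other cells.

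**Figure D4:**
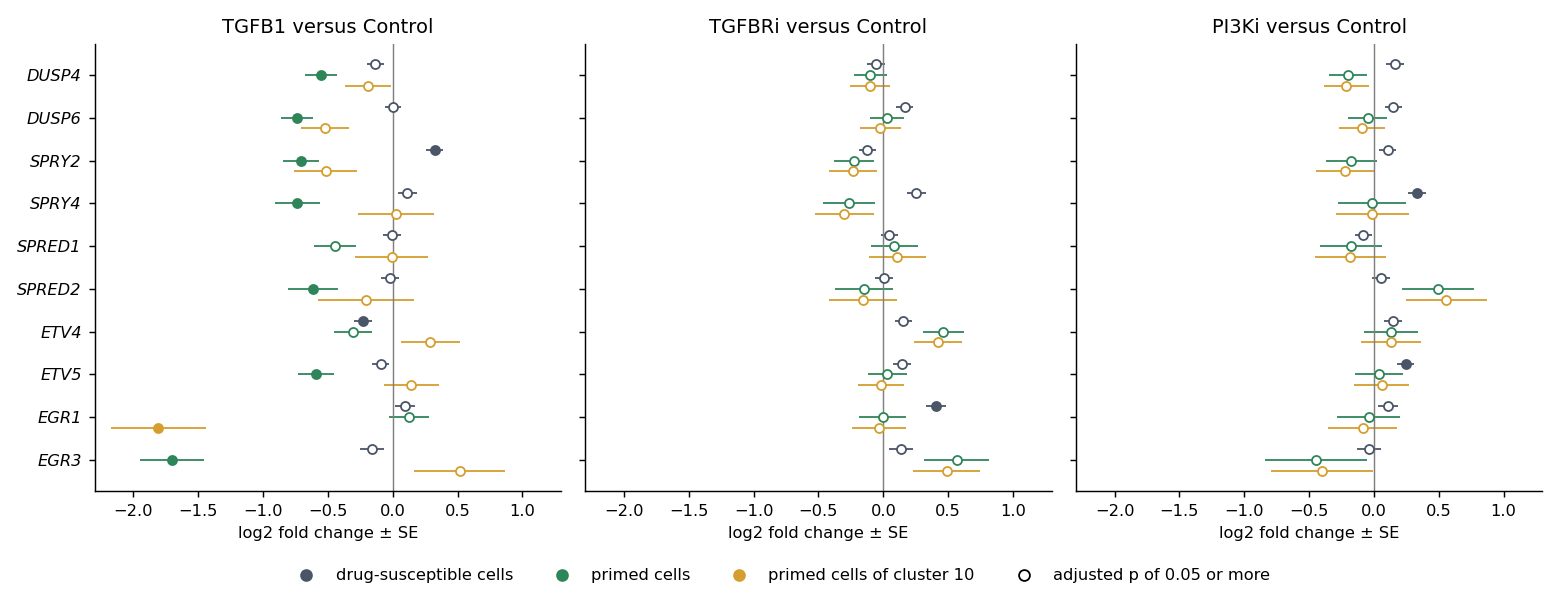
Log2 fold change against Control ± SE of the 10 genes under each treatment, in drug-susceptible cells, in primed cells and in primed cells of cluster 10, with filled circles for an adjusted p under 0.05. Under TGFB1 7 genes are filled to the left in primed cells, and in cluster 10 only EGR1 is filled.

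The difference between the states was also tested directly, in a fit with a term for each library. That fit used a spread shared over genes, so its p-values do not measure each gene's own spread between r1 and r2. The TGFB1 effect was lower in primed than in drug-susceptible cells for 7 of the 10 genes and higher for 0, while 4.49% of 18502 genes had a lower and 5.49% a higher effect. For TGFBRi and PI3Ki it passed for 0 of the 10 genes, where 0.238% and 0.351% of all genes had a higher and 0.313% and 0.859% a lower effect. The largest differences under TGFB1 were -1.46 ± 0.22 for EGR3, -0.96 ± 0.12 for SPRY2 and -0.80 ± 0.16 for SPRY4 on the log2 scale. The clusters named above differ between the primed cells compared here too. After TGFB1 the primed cells no longer stood above the drug-susceptible cells in SPRY2, DUSP4, SPRED2 or EGR3. In r1 and r2 the ratios were 0.863 and 0.881 for SPRY2 and 0.839 and 0.835 for DUSP4. They were 0.954 and 0.860 for SPRED2 and 0.395 and 0.361 for EGR3. DUSP6 still had 1.2 and 1.26, and EGR1 had 2.27 and 1.95.

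Other genes of the pathway are given by their counts. With all cells summed, TGFB1 raised 12 and lowered 1 of 16 immediate-early genes (median log2 0.65, led by JUN at 2.16, KLF4 at 1.40, KLF2 at 1.27 and JUNB at 1.22), and raised 9 and lowered 1 of 17 other ERK targets (median 0.47, led by ERRFI1 at 2.01, HMGA2 at 1.16, IER3 at 1.03 and EPHA2 at 0.99). The median over all genes was 0.01, and 16.3% of all genes were called higher and 12.7% lower. Of 25 cascade genes 7 rose, led by RPS6KA2 (1.1) and RASA1 (0.84), and 2 fell. In drug-susceptible cells 6 immediate-early genes rose and 2 fell, led by JUN (1.99), and 4 other targets rose and 1, MYC (-0.66), fell, beside 8.56% and 6.32% of all genes. In primed cells, where 6.21% of all genes were called higher and 7.09% lower, 2 of 13 immediate-early genes rose, JUNB (1.1) and FOSB (0.61), and 3 fell, ATF3 (-1.28), NR4A1 (-1.28) and, named after its value was seen, JUN (-0.60, adjusted p = 0.00758). JUN thus fell when the primed cells of both clusters were pooled and rose in drug-susceptible cells. In the primed cells the treatment and the cluster cannot be told apart. Of 14 other targets 5 fell, led by SPRY1 (-1.48), MAFF (-1.27), PHLDA1 (-0.95) and ETV1 (-0.94), and 1 rose. SPRY1, another Sprouty gene, thus fell along with SPRY2 and SPRY4 when the primed cells of both clusters were pooled. Among the markers of other cell types PECAM1 rose by 3.02 over all cells (adjusted p = 1.07e-10), from 0.346 and 0.324 CPM in Control to 3.22 and 2.32 CPM under TGFB1, while within primed cells it had 13.4 and 7.65 CPM and 12.1 and 8.19 CPM, and its part in these changes was not tested. In the primed cells NGFR fell by 3.28 on the log2 scale, AXL rose by 0.83 and EGFR by 0.89, and 5 of 6 melanocytic markers fell.

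Inhibition of the TGFβ receptor changed 1 member, EGR1, which rose. With all cells summed EGR1 had 19.5 and 22.6 CPM in Control and 25.7 and 28.8 CPM under TGFBRi, a log2 fold change of 0.39 ± 0.07 (adjusted p = 0.00256). In drug-susceptible cells it had 19.1 and 21.8 CPM and 25.5 and 28.0 CPM, a log2 fold change of 0.40 ± 0.08 (adjusted p = 0.00266). The groups did not overlap in either. Over all cells 1.09% of all genes were called higher and 1.45% lower, and in drug-susceptible cells 1.22% and 1.59%. The primed share was 2.26% and 4.32%, as in Control. SPRY4 in drug-susceptible cells was close to the threshold (log2 0.26, adjusted p = 0.0531) and passed without cluster 5 (0.32, adjusted p = 0.0181), where 1.09% of genes were called higher. The EGR1 call in drug-susceptible cells rested on the block, since without it the adjusted p was 0.275, and it was also lost without Control r2. The other members lay between -0.12 (SPRY2) and 0.24 (SPRY4) over all cells, and apart from SPRY4 between -0.12 and 0.16 (DUSP6) in drug-susceptible cells.

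TGFB1 and the inhibitor of its receptor thus both gave higher EGR1 over all cells, and they were compared with each other. In all cells the difference of TGFB1 from TGFBRi was 0.02 ± 0.07 for EGR1 (adjusted p = 0.884). In drug-susceptible cells EGR1 was lower under TGFB1 than under TGFBRi by -0.31 ± 0.08 (adjusted p = 0.00412). In the same cells SPRY2 was higher under TGFB1 by 0.44 ± 0.06 (adjusted p = 1.27e-05), and ETV4, EGR3 and ETV5 were lower (-0.38, -0.29 and -0.24). These calls of 1 member higher and 4 lower stand beside 12.3% and 9.79% of 17914 genes. In primed cells no member passed against Control under TGFBRi, where 0.0732% of genes were called higher and 0.302% lower. All TGFBRi primed cells, 118 and 271, were of cluster 10. EGR3 there had 43.3 and 26.4 CPM against 18.6 and 24.6 CPM in Control (log2 0.57 ± 0.25, adjusted p = 0.478), ETV4 differed by 0.46 (adjusted p = 0.331), and the other 8 lay between -0.26 (SPRY4) and 0.09 (SPRED1). Among the wider lists the inhibitor raised the immediate-early genes ATF3 (0.50) and FOSB (0.43) over all cells and lowered MYC (-0.31), and none of the 25 cascade genes passed.

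The PI3K inhibitor raised SPRY4 and ETV5. SPRY4 had 17.6 and 17.9 CPM in drug-susceptible Control cells and 22.7 and 19.3 CPM under PI3Ki, a log2 fold change of 0.33 ± 0.07 (adjusted p = 0.00266). ETV5 had 187.1 and 185.5 CPM and 205.2 and 207.2 CPM in the same cells, a log2 fold change of 0.24 ± 0.07 (adjusted p = 0.0196). The CPM are without the TMM factors, which the fold changes include. These were 1.004 and 1.031 in Control and 0.959 and 0.943 under PI3Ki, so the printed CPM differ by less than the fold changes. Neither gene's groups overlapped. The same 2 genes were called over all cells (0.30 and 0.26), where 5.83% of all genes were called higher and 6.83% lower. In drug-susceptible cells these shares were 5.89% and 6.22%. Without the replicate block neither passed (adjusted p = 0.06 for SPRY4 in drug-susceptible cells), and in drug-susceptible cells and over all cells both were lost without Control r1 or PI3Ki r1. ETV5 was also lost without Control r2 or PI3Ki r2, so that its call rested on all 4 libraries. The members that did not pass lay between -0.08 (SPRED1) and 0.16 (DUSP4) in drug-susceptible cells and between -0.09 (SPRED1) and 0.16 (ETV4) over all cells.

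The share of drug-susceptible cells in G1 was 33.4% and 31.3% in Control and 43.5% and 43.8% under PI3Ki. In drug-susceptible cells in G1 alone 5 genes were higher under PI3Ki, SPRY4 by 0.81, ETV5 by 0.34, SPRY2 by 0.26, DUSP4 by 0.22 and DUSP6 by 0.22 on the log2 scale, with adjusted p between 1.76e-06 and 0.0403, while 6.24% of 14866 genes were called higher there. The G2M cluster 5 made up 10.7% and 12.1% of the drug-susceptible cells in Control and 7.66% and 7.32% under PI3Ki. Without it SPRY4 was higher by 0.45, DUSP6 by 0.23 and ETV5 by 0.24, beside 5.63% of all genes. The same 2 restrictions under TGFB1 gave SPRY4 as higher as well, by 0.58 in G1, where SPRY2 and EGR1 also rose, and by 0.25 without cluster 5, where 8.66% and 8.98% of all genes were called higher. The share of cluster 5 under TGFB1 was 6.35% and 8.81%. The shares of the other drug-susceptible clusters were not compared between treatments, so their part in the changes under PI3Ki and TGFB1 was not tested.

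Of the other ERK targets, some fell under the PI3K inhibitor. Over all cells, where 5.83% of all genes were called higher and 6.83% lower, 5 of 17 fell and 1 rose, led by ERRFI1 (-0.70), DUSP5 (-0.55), FOSL1 (-0.52) and EPHA4 (0.49, the one that rose). Of 25 cascade genes 4 fell, RPS6KA3 (-0.36), RASA1 (-0.31), RPS6KA2 (-0.30) and NRAS (-0.21), and 0 rose. Of 16 immediate-early genes 2 fell, ATF3 (-1.17) and JUN (-0.84), and 2 rose, FOS and HSPA1A (0.22 each). In drug-susceptible cells ATF3 fell by 0.97 and the same 2 genes rose (0.28 and 0.23), and in primed cells 0 of 13 passed. The 4 primed markers fell with them, and the primed share was 0.647% and 1.21%. In the 25 and 70 primed cells left, no member passed, where 0.467% of genes were called higher and 1.32% lower, and 4 of 14 other targets fell, among them ERRFI1 (-0.81). SPRED2 had 56.1 and 35.3 CPM there against 30.6 and 26.6 CPM in Control (log2 0.49 ± 0.28, adjusted p = 0.524), and the other 9 lay between -0.45 (EGR3) and 0.13 (ETV4).

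At the gene starts no member was called between the sorts, in a comparison where few genes were called at all. ATAC-seq measures open chromatin, and the value used is the fold enrichment over local background of the highest peak within 500 bases of the annotated start. Of the 10 genes 9 had such a peak in all 12 libraries, and 0 of these 9 passed limma's test against Mix in any of the 3 marker-high sorts. Among 12143 genes 0.659% were called higher and 0.305% lower in EGFR_NGFR_High, 0.264% and 0.222% in EGFR_High, and 0.445% and 0.420% in NGFR_High. With shares this low, 0 of 9 is near the background and nothing about the members is read from it. At an unadjusted p under 0.05, where 11.6% to 12.5% of all genes were, there was 1 member, SPRY4 in EGFR_NGFR_High (log2 0.33 ± 0.15, adjusted p = 0.400), with 49.7, 45.4 and 45.7 against 34.9, 28.8 and 44.1 in Mix. In peaks from many cells, fewer open cells and less opening per cell cannot be told apart.

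DUSP6 had a fold enrichment of 79.3, 103.7 and 87.1 in Mix and of 109.5, 89.8 and 100.2 in EGFR_NGFR_High. EGR1, whose promoter is printed above, had 97.2, 95.7 and 112.8 in Mix and 123.8, 114.4 and 106.2 in EGFR_NGFR_High. The starts of both genes were thus open in cells without high markers. Each marker-high sort overlapped Mix for DUSP6, as did EGFR_NGFR_High and EGFR_High for EGR1. In NGFR_High EGR1 had 114.9, 122 and 130.7, each above every Mix value, although it did not pass the test. Of the tested genes, SPRY2 in NGFR_High and SPRED2 and SPRY4 in EGFR_NGFR_High also lay above every Mix value. The share of all genes with such a separation was not counted, so nothing is read from it. ETV4 was the gene left out of this test. It had a peak in 1 of 3 Mix libraries (9.41) and in 3 of 3 libraries of each other sort, between 13.2 and 26.5. ETV5 had values between 92.3 and 130 in 9 libraries and of 14.6, 19.2 and 13.7 in replicate 2 of Mix, NGFR_High and EGFR_NGFR_High, so its test had an SE of 0.91. With peaks taken within 1000 bases of the start the SE of ETV5 was 0.13, and its log2 differences from Mix were 0.07 in EGFR_NGFR_High, -0.03 in EGFR_High and -0.04 in NGFR_High. In that window ETV4 could be tested too and did not pass, with 0.55 in EGFR_NGFR_High (adjusted p = 0.243), 0.47 in NGFR_High (0.325) and 0.28 in EGFR_High (0.601).

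**Figure D5:**
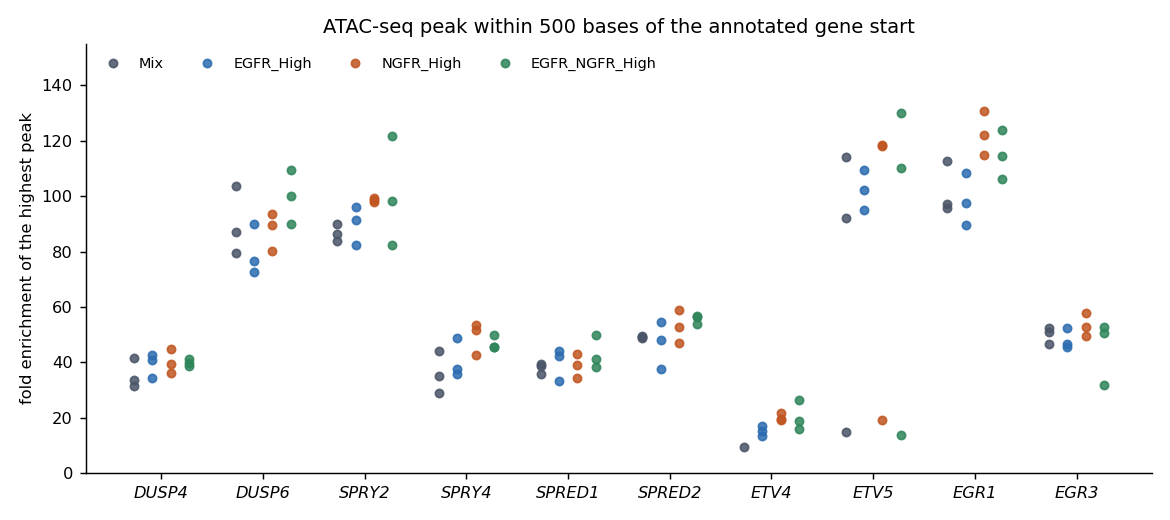
Fold enrichment of the highest ATAC-seq peak within 500 bases of each gene's annotated start, 1 point per library and 3 libraries per sort. A marker-high sort overlaps Mix in most cases but not in all, for example not at EGR1 or SPRY2 in NGFR_High. ETV4 has 1 point in Mix, and ETV5 has 3 points under 20.

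Away from the starts, a few regions near the members were open in marker-high cells only. Within 50 kb of the members' gene bodies lay 158 regions seen in at least 3 libraries. A peak in 3 of 3 EGFR_NGFR_High libraries and 0 of 3 Mix libraries was found for 4 of them (2.53%), near DUSP6, SPRED2, ETV4 and ETV5. In EGFR_High there were 3 (1.90%) and in NGFR_High 9 (5.70%). Over all 151657 regions the shares were 4.80% in EGFR_NGFR_High, 1.58% in EGFR_High and 3.52% in NGFR_High. With counts of 4, 3 and 9 regions the members' shares are near the background, and nothing is read from them. The pattern of 9 of 9 marker-high libraries and 0 of 3 Mix libraries held for 0.859% of all regions. Among the 158 it held for 2 (1.27%), near that share. These 2 regions are shown, 100 bases to each side of the summit of the highest peak, on the plus strand of hg38. The first is chr12:89391378-89391578, in a region whose midpoint lies at -38628 bases from the start of DUSP6 (negative is upstream), and the second is chr2:65459135-65459335, in a region whose midpoint lies at -26603 bases from the start of SPRED2. Capitals mark TGACTCA, a match to TGANTCA, the site that AP-1 factors such as JUN and FOS bind, and in the SPRED2 region also GCGTGGG, the letters searched for EGR sites.

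DUSP6 upstream region: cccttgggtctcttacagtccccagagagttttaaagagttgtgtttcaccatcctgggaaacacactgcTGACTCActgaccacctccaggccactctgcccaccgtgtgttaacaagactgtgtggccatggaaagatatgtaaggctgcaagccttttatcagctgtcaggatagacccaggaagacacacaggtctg

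SPRED2 upstream region: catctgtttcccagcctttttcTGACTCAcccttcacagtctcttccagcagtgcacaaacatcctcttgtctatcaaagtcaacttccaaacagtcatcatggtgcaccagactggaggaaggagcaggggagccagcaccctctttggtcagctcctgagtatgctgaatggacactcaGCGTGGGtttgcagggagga

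The fold enrichment at the DUSP6 region was 8.63, 6.14 and 4.96 in EGFR_NGFR_High, 4.70, 5.67 and 5.87 in EGFR_High and 5.57, 3.50 and 5.64 in NGFR_High. At the SPRED2 region it was 14.6, 9.45 and 12.4 in EGFR_NGFR_High, 7.26, 5.67 and 4.90 in EGFR_High and 7.16, 7 and 7.99 in NGFR_High. These are low values beside the 72.4 to 109.5 at the DUSP6 start. TGANTCA on either strand was found in the same window of 18.35% of 151653 regions and of 43.93% of the 1302 regions with this pattern, so an AP-1 match is common among them and not particular to these genes. GCGTGGG was found in 1.642% of all the regions and in 8 (0.6144%) of the 1302, and neither region held the letters searched for CRE, ETS or CArG sites. Which gene a region acts on was not measured.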

How the data were processed

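UMI counts of each gene in each cell were deposited by the authors, who used Cell Ranger with hg38 and combined libraries with no depth scaling. Its version and gene annotation are not given in the sources used here. Cells were filtered by the authors in Seurat V3 before deposit, and no doublet caller was run here. Their cell labels (library, replicate, cluster, state, phase) were used as they stand, and 0 per-sample columns had no known sample. The ATAC-seq peak lists were deposited by the authors as called in each library by MACS2 2.1.1.20160309 after Bowtie2 2.3.4.1 and SAMtools 1.1, with fold enrichment, a ratio over local background, and the −log10 of the q-value, of which the first was tested and the second ranked peaks.

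Counts of all cells in a state, cluster or library were added up and scaled to CPM, without the TMM factors that the fold changes include. Ratios between states in the first 2 experiments have no test, since states were called from the same counts. For the treatment experiment the test on these sums was that of edgeR 4.0.16 (R 4.3.3; filterByExpr, TMM, quasi-likelihood, two-sided), with terms for treatment and replicate, Benjamini-Hochberg adjustment over all genes and a threshold of 0.05. SEs are the log2 fold change over the square root of F. By the study's methods the replicates are samples of the same line carried through sorting, expansion and treatment in parallel, although the sample labels call them Mix and Primed. With the replicate as a block, p-values measure how far treatment differences vary between these 2 cultures, not the spread between cultures. The study's methods split the cells of 1 well over the 4 plates, and the r2 minus r1 difference of a gene correlated between treatments in all pairs (Pearson's r 0.257 to 0.365 across genes), so the replicate pairs the libraries. ATAC fold enrichments were centred per library on the log2 scale and tested with limma 3.58.1. Counting intervals are exact Poisson intervals at 95%. The edgeR procedure was tested on simulated data: of genes changed by 1 on the log2 scale it recovered 78.8% of 99 over all cells (18389 genes), 87.0% of 100 in drug-susceptible cells (17914) and 75.8% of 99 in primed cells (10930), and 53.7%, 60.2% and 21.6% of those changed by 0.5. Of its calls 7.19%, 7.01% and 2.04% were of genes that had not been changed. In the simulation few genes were changed, as many up as down, and no replicate effect was drawn. In the data TGFB1 called 29% of genes over all cells, so these rates need not hold there.

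All 10 members are given in every treatment comparison against Control, by value or by range, and of the other lists at most 4 genes past the threshold with the largest change. Exceptions are genes the text names as chosen after their values were seen and the only gene of a list beyond the threshold in its direction. The genes most like SPRED2 and the level of 1 cascade gene are not reported here. The members and lists were chosen with earlier results of these data known. Alternatives were DESeq2 1.42.0, RLE factors, no filter, no replicate term, each library left out, equal cell numbers, G1 cells, barcoded cells, and other windows, peaks and centring. The restrictions to cluster 10 and without cluster 5, and the test of the difference between states, were chosen after seeing the data. Sequences are from RefSeq on GRCh38.p14 and the hg38 genome, searched in Python 3.11.15 for CArG, CRE (TGACGTCA), AP-1 (TGANTCA), ETS (CCGGAAGT) and EGR (GCGTGGG) letters on both strands.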

Additional observations from a re-analysis of the deposited data

Results flagged for a closer look

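The effect of TGFB1 differed between primed and drug-susceptible cells in 7 of the 10 genes by a test of the difference itself, with edgeR's quasi-likelihood test in a fit with a term for each library and p-values adjusted over 18502 genes. The effect on the log2 scale in primed minus that in drug-susceptible cells was -1.46 for EGR3 (adjusted p = 1.77e-09), -0.955 for SPRY2 (5.21e-13), -0.799 for SPRY4 (1.84e-05), -0.676 for DUSP6 (4.31e-10), -0.515 for SPRED2 (0.0445), -0.404 for ETV5 (0.00505) and -0.347 for DUSP4 (0.00408). SPRY2 was the gene whose own effect passed in both states with opposite signs. SPRED1 was close to the threshold (-0.37, adjusted p = 0.0503), and EGR1 (0.10) and ETV4 (-0.02) were not past it. The fit left 4 residual degrees of freedom, and its p-values equal those of a normal distribution for effect over SE. They thus rest on a spread shared over genes, not on each gene's own spread between r1 and r2. The states were also called from these same counts. Primed cells under TGFB1 were mostly of cluster 4 and those of Control mostly of cluster 10, so that in this difference the treatment and the cluster cannot be told apart. For TGFBRi and PI3Ki the same test passed for 0 of 10 genes each, with 4 and 1 at an unadjusted p under 0.05, where 7.44% and 7.83% of the 18502 genes were. None of the 10 genes had a well whose state ratio stood apart from the other 7 by Dixon's test. That test takes the wells as independent, while wells can share a culture, so a culture that stood apart could go unseen.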

How the results depend on the processing

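Over all alternatives other than leaving out a library, 505 of the treatment results of members kept their side of the threshold, 13 passed it newly and 17 no longer passed. A further 4 changed sign with a value past the threshold, counted as reversed. The 4 were TGFB1 effects in primed cells restricted to cluster 10, SPRY4 (0.0228), ETV5 (0.14), EGR1 (-1.81) and EGR3 (0.52), and there the count of members called went from 7 to 1. Among all results that kept their side, those with a library left out and those of ATAC-seq included, 95 changed sign with neither value past the threshold. Without the replicate block the count went from 6 to 4 for TGFB1 over all cells, with EGR3 and DUSP4 lost, from 2 to 1 for TGFB1 in drug-susceptible cells and to 0 for TGFBRi and PI3Ki, over all cells and in drug-susceptible cells. In these fits without the block the share of all genes called in either direction fell as well, from 29% to 19.6%, from 14.9% to 6.64%, and for TGFBRi and PI3Ki to between 0.218% and 3.53%. In G1 cells the count was 7 for TGFB1 over all cells (32.5% of all genes), with SPRY4 and DUSP6 gained and DUSP4 lost, 4 in drug-susceptible cells (15.8%), 4 for PI3Ki over all cells (12.6%) and 5 in drug-susceptible cells (13%). For TGFBRi in drug-susceptible cells it was 2 with no filter on low counts and 2 without cluster 5, with SPRY4 added to EGR1 in both. DESeq2 did not call SPRED2 and SPRY4 for TGFB1 in primed cells.

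With each library left out in turn, the count ran from 4 to 6 for TGFB1 over all cells, from 0 to 2 in drug-susceptible cells and from 3 to 8 in primed cells, lowest without TGFB1 r1 (3) and Control r2 (4). It ran from 0 to 1 for TGFBRi over all cells, from 0 to 2 in drug-susceptible cells and was 0 in primed cells. For PI3Ki it ran from 0 to 3 over all cells, from 0 to 2 in drug-susceptible cells and was 0 in primed cells. The share of all genes called moved too. It ran from 16.7% to 33.5%, from 5.33% to 20.2% and from 5.19% to 14.5% for TGFB1 in the 3 sets of cells, from 0.151% to 6.75% for TGFBRi and from 0.797% to 17.8% for PI3Ki. The counts of 0 came without Control r1 (TGFB1 in drug-susceptible cells, PI3Ki), Control r2 (TGFBRi) and PI3Ki r1 (PI3Ki). For TGFB1 over all cells EGR1, ETV4 and ETV5 passed in 14 of 14 settings.

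In ATAC-seq all 132 and 324 results kept their side under other windows, peaks and centring and with each library left out, with 0 members called. ATAC-seq libraries with the same replicate number were at most weakly alike. Pearson's r of their deviations ran from -0.0212 to 0.103, against -0.0972 to 0.0565 for different numbers. The main test had no replicate block, and with a block 0 of 9 members were called in each sort. In WM983B the number of members beyond 1.5-fold was 0, 4 in G1 cells and 1 without cluster 3, and in WM989 it was 5, and 5 to 7 over the alternatives. Among members with at least 20 CPM in the same cells it was 0 of 7, 3 of 8 and 0 of 7 in WM983B, beside 6.07%, 9.03% and 6.89% of all genes, and 4 of 8 in WM989 (32.4% of all genes), with 4 or 5 of 7 or 8 over the alternatives (31.4% to 36.3%). SPRY4 was among these 3 members in WM983B G1 cells and these 4 in WM989. In both it reached 20 CPM only through the primed cells (22.1 against 9.86 CPM in WM983B G1 cells). SPRED2, counted in some alternatives of WM989, did so too, and nothing is read from these counts. Primed cells in Control and PI3Ki were few, 94 and 165 and 25 and 70, which limits what a test in them can detect.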
